A study of Mus musculus with 40 samples.

Results

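The genes described here are the core of the TGF-beta pathway in the mouse cortex: the ligands *Tgfb1*, *Tgfb2* and *Tgfb3*, the receptors *Tgfbr1*, *Tgfbr2* and *Tgfbr3*, and the signal transducers and inhibitor *Smad2*, *Smad3* and *Smad7*. They were found by gene name in a count table and are 9 of 43346 genes listed, and all 9 were among the 21253 genes that reached 10 counts in 4 or more libraries. The pathway was chosen by an earlier result of these data, the lower *Tgfbr2* level in amyloid Hom mice than in amyloid WT mice, so the Hom and WT values within the amyloid cohort are given as a description and not as a test.

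TGF-beta ligands are secreted in a latent form held in the extracellular matrix or on the cell surface, and integrins of neighbouring cells release them. The active ligand binds the type II receptor (TGFBR2), which recruits and phosphorylates the type I receptor (TGFBR1), and this kinase phosphorylates SMAD2 and SMAD3, which enter the nucleus and change transcription. SMAD7 is induced by the pathway and blocks the type I receptor. In the brain, microglia need TGF-beta signals to keep their homeostatic gene programme, and blood vessels need them for their stability.

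Bulk RNA sequencing was performed on the cortex of 40 mice in 4 groups of 10, each with 5 females and 5 males. The amyloid cohort consisted of 5xFAD mice aged 8.5 months, hemizygous for the mutant human transgenes of that line, APP among them, which a neuronal Thy1 promoter drives. The non-amyloid cohort consisted of mice aged 6 months without these transgenes. In each cohort, WT mice carried 2 normal *Trem2* alleles and Hom mice carried the H157Y substitution on both alleles, made by CRISPR/Cas9 editing and kept as the offspring of 1 founder, with littermates as WT. The missense allele was present in every cell from the germline. The amyloid cohort came from a separate cross of the knock-in mice to 5xFAD mice. The cohorts thus differ in age, in transgenes and in breeding at once, and the parts of these in any cohort difference cannot be told apart. Every sample was 1 mouse and 1 library.

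Total counts per library ranged from 41646271 to 105903846. The library with the lowest total, amyloid Hom replicate 19, a female, stood apart: its counts held 0.594% on 514 genes that lie mostly opposite a gene expressed at least 10 times higher, against 0.00586% to 0.00813% in the other 39 libraries, and its median correlation with its own group was 0.952, the lowest of the 40. Values of amyloid Hom mice are therefore given with and without it where it bears on a result. *Trem2* itself averaged 10.7 ± 2.13 CPM (read counts scaled to the normalized library size; SD, n = 10) in non-amyloid WT, 10.4 ± 1.59 in non-amyloid Hom, 62.2 ± 24.4 in amyloid WT and 33.9 ± 10.3 in amyloid Hom mice. A single-base substitution cannot be read from gene counts, so these levels do not check the genotype labels. Among cell type markers, all 8 microglial markers, the 8 endothelial and the 6 neuronal markers were above 0 in every library, and of the 6 genes of plaque-associated microglia only *Clec7a*, which has 2 rows in the table, was at 0 in some libraries.

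The genes lie on 7 chromosomes of the mouse build mm10. *Tgfb1* (ENSMUSG00000002603) spans chromosome 7, 25687002 to 25705077. *Tgfbr1* (ENSMUSG00000007613) spans chromosome 4, 47353222 to 47414931, and *Tgfbr2* (ENSMUSG00000032440) spans chromosome 9, 116087698 to 116175363. No exon of these 3 genes overlaps an exon of another gene in the GENCODE annotation of that build. The counts were made per gene with no stated strand setting, and 12.4% of the exon bases of *Tgfb3* and 2.14% of those of *Tgfb2* lie opposite exons of predicted genes, while 4.54% of those of *Tgfbr3* are shared with a predicted gene on the same strand. The counts of these 3 members are therefore less certain.

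The promoters of *Tgfb1*, *Tgfbr1* and *Tgfbr2* are shown because these were the members that rose together between the cohorts. Each run is the 250 bases upstream of the RefSeq start (GRCm38.p6, the mm10 build), 5′ to 3′ on the strand of the gene. Capitals mark GGGCGG (the GC box bound by Sp1-type factors) or GAGGAA (a core bound by ETS factors such as PU.1), on either strand. *Tgfb1* is chr7:25686752-25687001 on the plus strand, *Tgfbr1* is chr4:47352972-47353221 on the plus strand, and *Tgfbr2* is chr9:116175364-116175613 on the minus strand.
Tgfb1: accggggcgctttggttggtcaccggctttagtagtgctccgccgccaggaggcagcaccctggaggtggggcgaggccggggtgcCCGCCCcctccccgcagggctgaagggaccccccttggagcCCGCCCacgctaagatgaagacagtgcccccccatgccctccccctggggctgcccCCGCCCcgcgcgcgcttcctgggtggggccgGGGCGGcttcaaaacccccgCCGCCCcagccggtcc
Tgfbr1: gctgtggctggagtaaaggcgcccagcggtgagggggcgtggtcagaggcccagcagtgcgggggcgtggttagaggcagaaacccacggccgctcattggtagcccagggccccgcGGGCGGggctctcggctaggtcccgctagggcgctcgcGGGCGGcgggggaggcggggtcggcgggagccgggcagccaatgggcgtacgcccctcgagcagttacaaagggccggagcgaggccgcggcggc
Tgfbr2: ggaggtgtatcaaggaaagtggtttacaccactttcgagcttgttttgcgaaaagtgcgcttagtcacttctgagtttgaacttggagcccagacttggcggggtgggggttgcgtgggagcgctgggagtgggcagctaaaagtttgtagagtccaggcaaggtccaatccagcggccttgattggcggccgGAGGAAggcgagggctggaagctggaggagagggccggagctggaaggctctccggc

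The *Tgfb1* window held 5 GC boxes and the *Tgfbr1* window 2, while the *Tgfbr2* window held none and had 1 GAGGAA, 57 bases before the start. Of 32817 promoter windows of the same length, 32.7% held a GC box and 23.3% held the ETS core. The Smad-binding box (CAGACA) was in none of the 3 windows and in 17.1% of all windows, and the motif of AP-1 (TGANTCA) was likewise in none of the 3 and in 6.75% of all. GC content was 75.2% for *Tgfb1*, 74.8% for *Tgfbr1* and 58.4% for *Tgfbr2*, against a median of 52.4%. Such matches are letters in a window, and no binding was measured.

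Levels of different genes were compared as CPM per kilobase of the gene length in the table. In non-amyloid WT mice *Smad3* was the highest, at 17.01 ± 1.83 CPM per kilobase (SD, n = 10), followed by *Smad2* at 11.7 ± 1.33 and the type I receptor *Tgfbr1* at 5.78 ± 0.922, and *Smad2* and *Tgfbr1* did not overlap the genes below them in any mouse. *Tgfb3* (3.73 ± 0.388), *Tgfbr2* (3.49 ± 0.127), *Smad7* (3.26 ± 0.454), *Tgfbr3* (2.40 ± 0.200) and *Tgfb2* (1.89 ± 0.243) followed, each overlapping its neighbour in this order across mice. *Tgfb1* was the lowest, at 0.541 ± 0.0921 CPM per kilobase, and its highest mouse was below the lowest *Tgfb2* mouse. In amyloid WT mice the order at the top was *Smad3* (16.5 ± 1.81), *Smad2* (11.5 ± 0.970), *Tgfbr1* (10.4 ± 2.11) and *Tgfbr2* (8.31 ± 1.81), with each overlapping the next, and *Tgfb1* at 1.80 ± 1.13 now overlapped *Tgfb2* at 2.003 ± 0.152. Gene length sets part of this order: with the length of the longest annotated transcript, *Tgfbr1* ranked above *Smad2* in all 4 groups, since *Smad2* has a longest transcript of 8089 bases against a length of 3549 in the table. *Tgfbr2*, with a longest transcript of 8092 bases against 4785 in the table, then fell from rank 5 to rank 8 in both non-amyloid groups (2.06 CPM per kilobase in WT mice) and from rank 4 to rank 6 in amyloid Hom mice, so its place in the order is not settled.

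**Figure D1:**
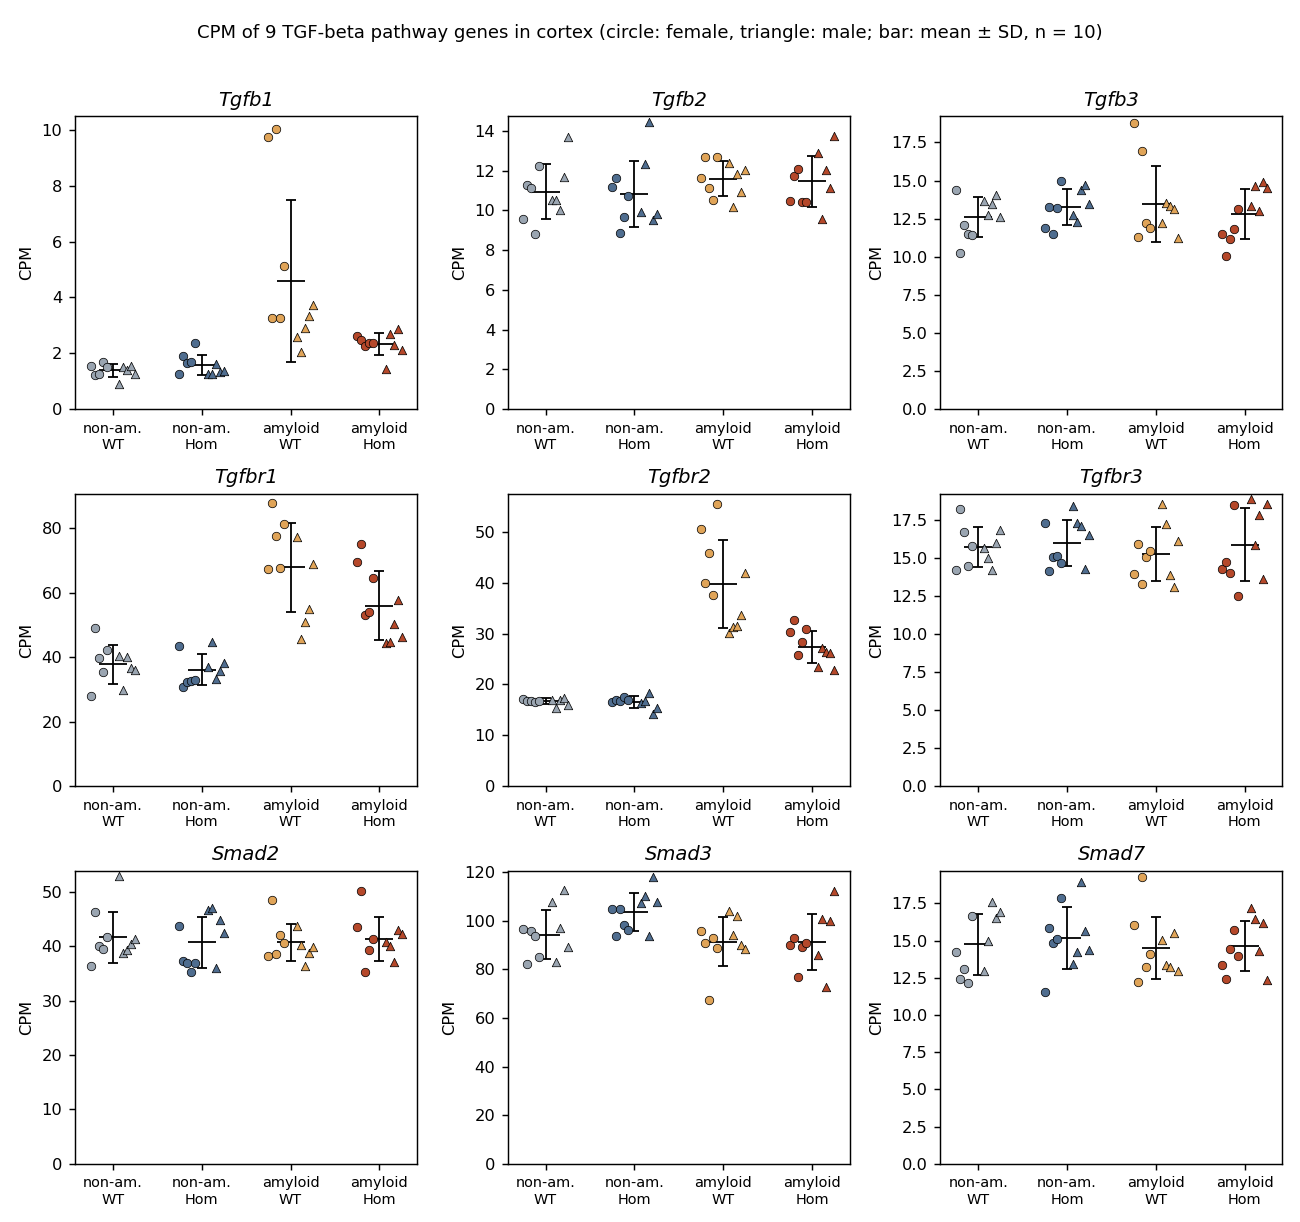
CPM of each of the 9 genes (vertical axes, each from 0) in the 4 groups, with 1 point per mouse, circles for females and triangles for males, and bars for the mean ± SD (n = 10). *Tgfb1*, *Tgfbr1* and *Tgfbr2* were higher in the amyloid groups, and 2 amyloid WT females stood far above the rest in *Tgfb1*.

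The first question was how the pathway differed between the amyloid and the non-amyloid cohort. In WT mice 3 of the 9 genes were higher in the amyloid cohort and none was lower, where 6.21% of all genes tested were called higher and 7.31% were called in either direction. The 3 were the ligand *Tgfb1* and the 2 signalling receptors *Tgfbr1* and *Tgfbr2*. The median log2 fold change was 0.08 over the 9 genes and 0.00 over all genes tested. This comparison shares the amyloid WT libraries with the one that led to the choice of the pathway.

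*Tgfb1*, the ligand made mainly by microglia in the brain, ranged from 0.884 to 1.70 CPM in non-amyloid WT mice, with a median of 1.45. In amyloid WT mice it ranged from 2.04 to 10.03 CPM, with a median of 3.30, so that every amyloid mouse was above every non-amyloid mouse. Its mean was 3.33 times as high (log2 fold change 1.73, SE 0.26, adjusted p = 4.10e-05, by the quasi-likelihood test of edgeR, adjusted over all genes by the Benjamini-Hochberg method, as for every adjusted p of edgeR that follows).

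*Tgfbr2*, the type II receptor that binds the ligand, was very even in non-amyloid WT mice, from 15.3 to 17.4 CPM with a median of 16.8. In amyloid WT mice it ranged from 30.2 to 55.4 CPM, with a median of 38.7, and again the groups did not overlap. The log2 fold change was 1.25 (SE 0.10, edgeR adjusted p = 2.04e-09), a ratio of means of 2.38. Only 1.95% of all genes tested had every amyloid WT mouse above every non-amyloid WT mouse, and *Tgfb1* and *Tgfbr2* were the 2 members of the 9 that did.

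*Tgfbr1*, the type I receptor kinase, ranged from 28.2 to 49.1 CPM in non-amyloid WT mice (median 38.3) and from 45.6 to 87.8 CPM in amyloid WT mice (median 68.4). Of the 10 amyloid mice, 9 were above all non-amyloid mice. The log2 fold change was 0.85 (SE 0.11, edgeR adjusted p = 9.10e-06).

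The other 6 genes had log2 fold changes between −0.04 and 0.09 in WT mice, with SEs of 0.06 to 0.09. *Smad2*, one of the transducers, averaged 41.6 ± 4.72 CPM in non-amyloid WT and 40.7 ± 3.44 CPM in amyloid WT mice (SD, n = 10 each). *Smad3*, its partner, averaged 94.3 ± 10.1 and 91.4 ± 10.02 CPM. *Smad7*, the inhibitor that the pathway itself induces, averaged 14.7 ± 2.05 and 14.5 ± 2.08 CPM. *Tgfbr3*, the co-receptor betaglycan, averaged 15.7 ± 1.31 and 15.3 ± 1.77 CPM. The ligands *Tgfb2* and *Tgfb3* averaged 10.95 ± 1.41 and 12.6 ± 1.31 CPM in non-amyloid WT mice and 11.6 ± 0.879 and 13.5 ± 2.49 CPM in amyloid WT mice. *Tgfb1*, *Tgfbr1* and *Tgfbr2* were thus the called members, and no difference was called for *Tgfbr3*, the other ligands or the Smads.

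In Hom mice the same 3 genes were higher in the amyloid cohort, where 4.9% of all genes tested were called higher and 5.89% in either direction. This comparison shares no library with the one in WT mice, and it shares the amyloid Hom libraries with the comparison that led to the choice. *Tgfbr2* ranged from 14.2 to 18.3 CPM in non-amyloid Hom mice (median 16.8) and from 22.8 to 32.6 CPM in amyloid Hom mice (median 26.8), without overlap, as for 0.875% of all genes tested. The log2 fold change was 0.72 (SE 0.06, edgeR adjusted p = 5.74e-08). *Tgfbr1* ranged from 30.9 to 44.7 CPM (median 34.6) and from 44.5 to 75.2 CPM (median 53.7), with a log2 fold change of 0.63 (SE 0.10, edgeR adjusted p = 0.000130). *Tgfb1* ranged from 1.25 to 2.36 CPM (median 1.48) and from 1.42 to 2.87 CPM (median 2.36), so that 5 of 10 amyloid Hom mice were above all non-amyloid Hom mice. Its log2 fold change was 0.58 (SE 0.13, edgeR adjusted p = 0.00883), and in 1 fit of all 40 libraries the adjusted p was 0.0821. The 3 calls were made in each of the 20 fits without 1 mouse, and without amyloid Hom replicate 19 the log2 fold changes were 0.58, 0.64 and 0.73 for *Tgfb1*, *Tgfbr1* and *Tgfbr2*. *Smad3* averaged 103 ± 7.86 CPM in non-amyloid Hom and 91.2 ± 11.5 CPM in amyloid Hom mice, with 7 of 10 amyloid mice below all non-amyloid mice, but its log2 fold change of −0.18 (SE 0.06) did not pass (edgeR adjusted p = 0.0920). The other 5 genes had log2 fold changes from −0.05 to 0.08.

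**Figure D2:**
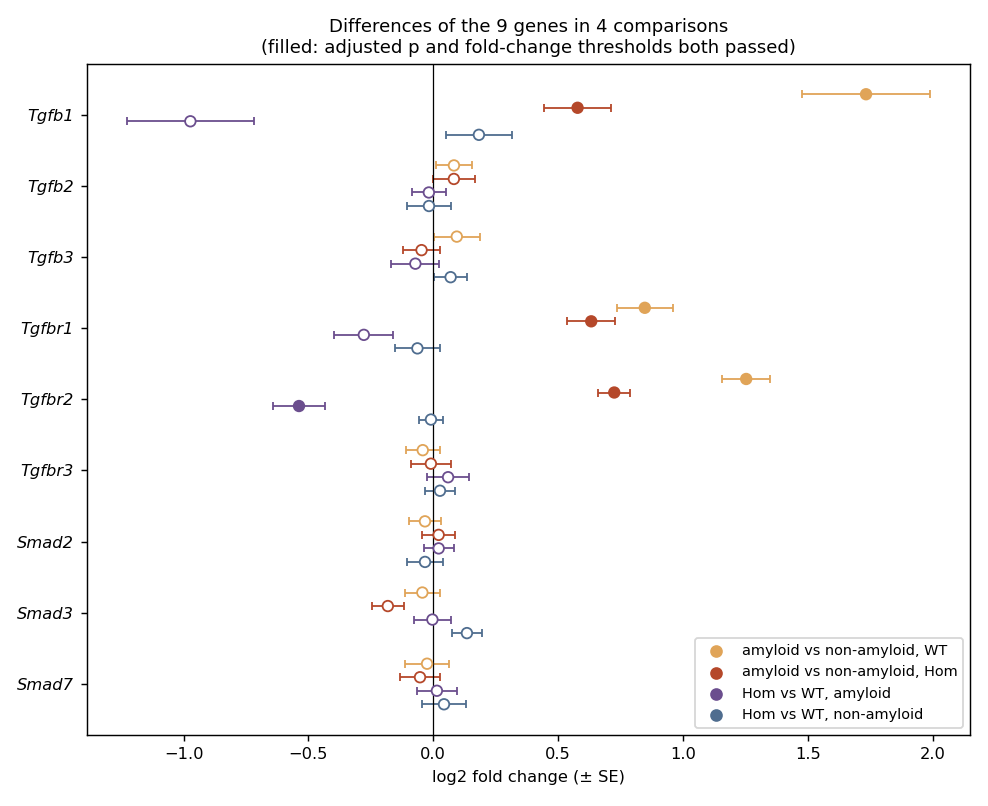
Log2 fold change ± SE (horizontal axis) of the 9 genes in 4 comparisons; filled points passed an adjusted p of 0.05 and an absolute log2 fold change of 0.25. *Tgfb1*, *Tgfbr1* and *Tgfbr2* lie to the right of 0 in both cohort comparisons, and the *Smad* genes lie within 0.20 of 0 in all 4. The comparison of amyloid Hom with amyloid WT mice chose the pathway, so its points are a description and not a test.

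Microglial markers moved with these 3 genes between the cohorts, as did 2 of the 7 astrocyte markers. The summed level of the 8 microglial markers ranged from 295 to 413 CPM in non-amyloid WT, from 326 to 381 in non-amyloid Hom, from 614 to 1395 in amyloid WT and from 481 to 814 CPM in amyloid Hom mice. All 8 markers were called higher in amyloid WT mice (median log2 fold change 1.37) and 7 of 8 in amyloid Hom mice (0.88). The summed level of the 6 genes of plaque-associated microglia averaged 27.7 ± 4.42 CPM in non-amyloid WT and 25.7 ± 3.01 in non-amyloid Hom mice, and 323 ± 124 and 157 ± 55.2 CPM in amyloid WT and amyloid Hom mice. The 8 endothelial markers summed to between 168 ± 10.01 and 181 ± 13.4 CPM in the 4 groups, and the 6 pericyte markers to between 176 ± 8.06 and 181 ± 13.6. In WT mice 2 of the 8 endothelial markers, *Cldn5* and *Kdr*, and 0 of the 6 pericyte markers were called higher in the amyloid cohort by edgeR, and in Hom mice none of either list. The 7 astrocyte markers were all above 0 in both genotypes, with *Gfap* and *Aqp4* called higher in both. Their median log2 fold change was 0.18 in WT and 0.21 in Hom mice. They summed to 4496 ± 513 CPM in non-amyloid WT, 4413 ± 284 in non-amyloid Hom, 5750 ± 485 in amyloid WT and 5439 ± 532 CPM in amyloid Hom mice. Of the 6 markers of leptomeningeal fibroblasts *Slc6a13* was called higher in both genotypes, and in Hom mice the oligodendrocyte marker *Mobp* was called higher and the neuronal marker *Rbfox3* lower. Choroid plexus markers varied between mice, from 7.26 to 671 CPM summed, with group means of 31.99, 82.6, 90.8 and 225 CPM in non-amyloid WT, non-amyloid Hom, amyloid WT and amyloid Hom mice, and no marker of the list was called. The part of these cell types in the levels of the pathway genes was not tested, and in bulk tissue fewer cells of a type and less RNA per cell cannot be told apart.

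**Figure D3:**
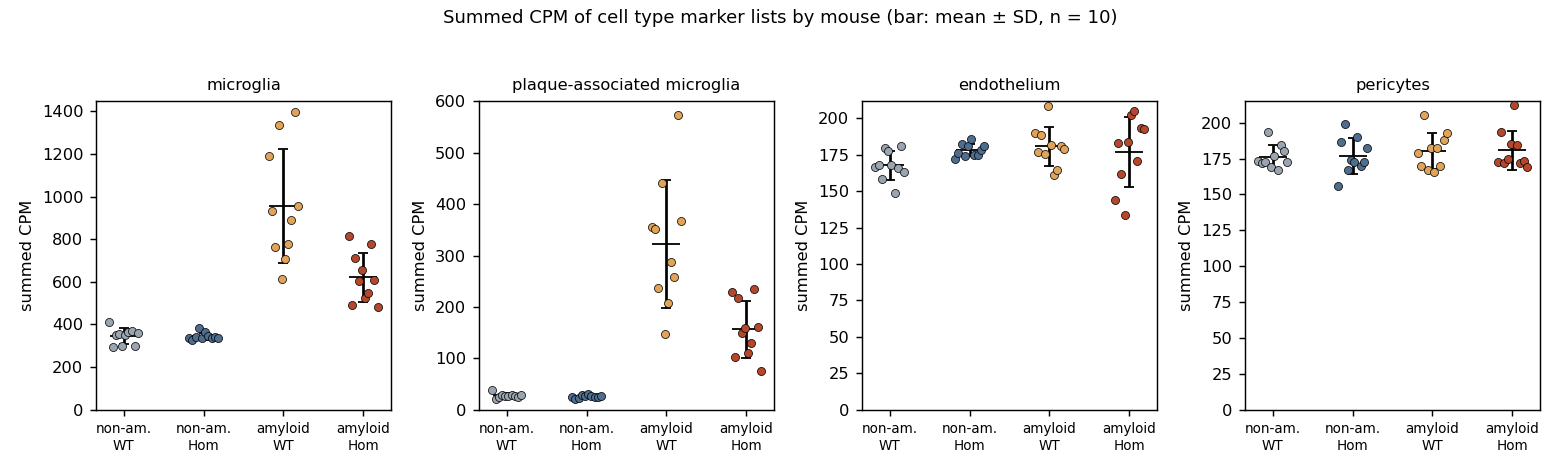
Summed CPM of 4 lists of cell type markers (vertical axes, each from 0) in the 4 groups, with 1 point per mouse and bars for the mean ± SD (n = 10). Both microglial lists were higher in the amyloid groups, and the endothelial and pericyte lists had group means between 168 and 181 CPM.

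The wider pathway was followed over 87 other genes in 8 roles, of which 85 were tested. In WT mice 15 of the 85 were higher and 1 was lower in the amyloid cohort (median log2 fold change 0.07), and in Hom mice 10 were higher and 3 were lower (median 0.00). Over all genes tested 6.21% were called higher and 1.1% lower in WT mice, and 4.9% higher and 0.988% lower in Hom mice. The number of all genes called lower in Hom mice was 210, and 162 without amyloid Hom replicate 19. Over the fits without 1 mouse it ran from 119 to 468. Calls of the 85 genes in Hom mice are given with replicate 19 only, and whether they hold without it is not reported here. Of the 10 microglial genes that depend on TGF-beta, 8 were higher in WT mice and 5 in Hom mice. Among them *Fcrls*, an Fc receptor-like gene of microglia, had log2 fold changes of 2.21 (SE 0.19) in WT and 1.55 (SE 0.20) in Hom mice, and *Olfml3*, a secreted olfactomedin-like protein gene, had 1.81 (SE 0.18) and 1.12 (SE 0.16). *P2ry12*, the purinergic receptor of homeostatic microglia, had lower values, 0.49 (SE 0.11) and 0.37 (SE 0.10).

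Genes for latency and activation of the ligands were higher in 2 of 12 cases in each genotype. *Itgb5*, an integrin beta chain that can release latent TGF-beta, was higher in both, by 1.19 (SE 0.13) in WT and 0.63 (SE 0.10) in Hom mice. *Nrros*, the milieu molecule that holds latent *Tgfb1* on microglia, was called in WT mice at 0.45 (SE 0.09, edgeR adjusted p = 0.00138), and *Itgb8*, the beta chain of the integrin that activates latent TGF-beta in the brain, in Hom mice at 0.31 (SE 0.09, edgeR adjusted p = 0.0405). Of the 14 tested ligands of the wider family only *Gdf10* was called in WT mice, lower at −0.42 (SE 0.12, edgeR adjusted p = 0.0252), and none in Hom mice.

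Among antagonists and binders, *Cd109*, a TGF-beta co-receptor that dampens signalling, was higher in both genotypes, at 1.12 (SE 0.21) in WT and 0.56 (SE 0.16) in Hom mice, and *Fst*, which binds activins, was lower in Hom mice at −0.46 (SE 0.10). *Tgif1*, a corepressor of Smads, was the called intracellular inhibitor in WT mice at 1.395 (SE 0.12, edgeR adjusted p = 1.90e-08) and was also higher in Hom mice at 0.94 (SE 0.17), where *Pmepa1*, an inhibitor induced by the pathway, was lower at −0.36 (SE 0.08). Of the other receptors, none was called in WT mice, while in Hom mice *Bmpr1b*, a BMP type I receptor, was higher at 0.39 (SE 0.09) and *Acvrl1*, the endothelial type I receptor ALK1, was lower at −0.48 (SE 0.13). None of the 7 other Smads and adaptors was called in either genotype.

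Of 11 transcriptional targets of the pathway, 3 were higher in WT mice and 0 were called in Hom mice by edgeR (4 of them at an unadjusted p under 0.05, as were 23.8% of all genes). Among the 3 were *Cdkn1a*, a cell cycle inhibitor, at 0.65 (SE 0.16) and *Tgfbi*, a matrix protein induced by TGF-beta, at 0.44 (SE 0.11). Whether the cohort difference of any pathway gene differs between the genotypes is the interaction described below.

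**Figure D4:**
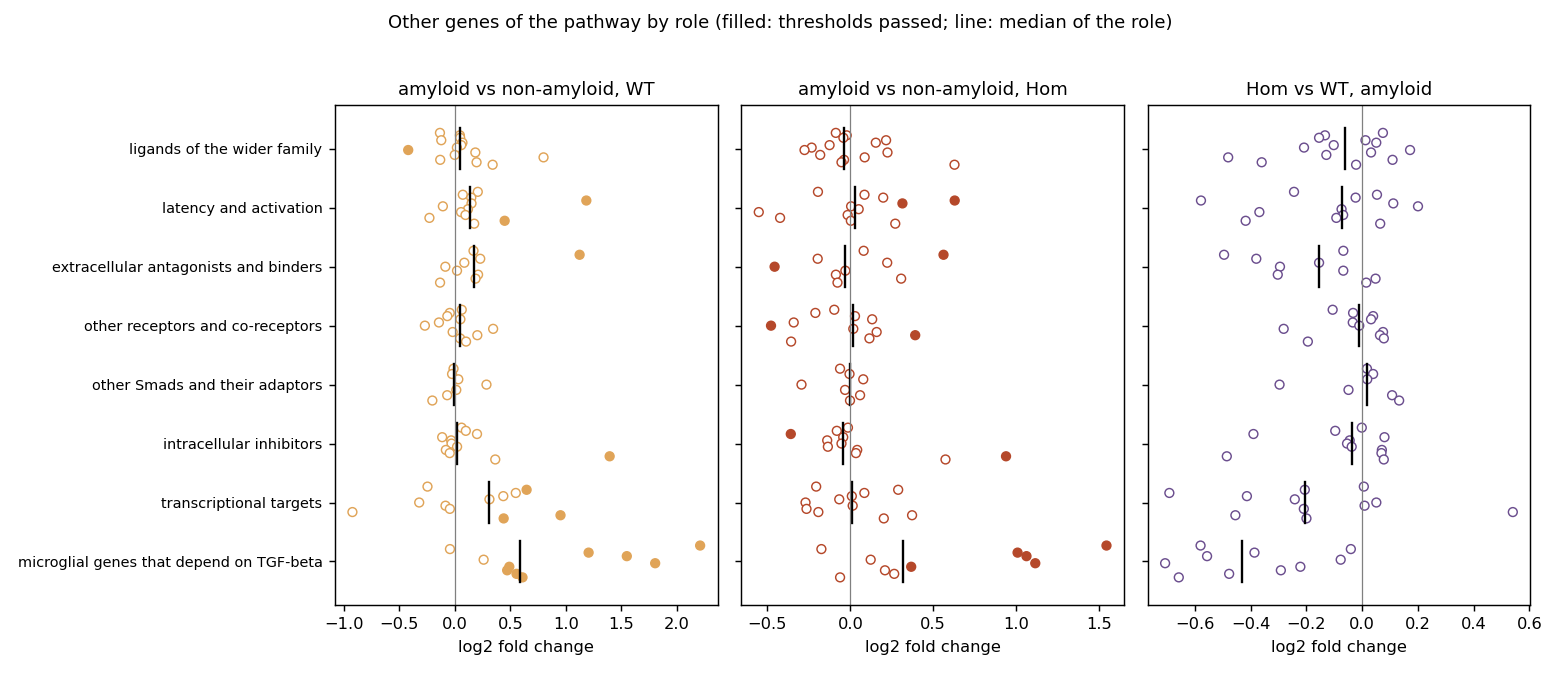
Log2 fold change (horizontal axis) of 85 other pathway genes in 3 comparisons, grouped by 8 roles, with filled points for genes past both thresholds and a line at the median of each role. The microglial genes that depend on TGF-beta had medians of 0.58 and 0.32 in the cohort comparisons of WT and Hom mice, and −0.43 in amyloid Hom against WT mice, where no point is filled.

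The second question was whether homozygous H157Y changed the pathway. In the non-amyloid cohort, whose libraries took no part in the choice of the genes, 0 of the 9 were called by edgeR (0.0329% of all genes tested were called) and 1 of 9 had an unadjusted p under 0.05, as did 4.49% of all genes. DESeq2 and limma-voom also called none of the 9. That gene was *Smad3*, which averaged 94.3 ± 10.1 CPM in WT and 103 ± 7.86 CPM in Hom mice (log2 fold change 0.13, SE 0.06, edgeR adjusted p = 0.962). *Tgfbr2* averaged 16.7 ± 0.607 and 16.6 ± 1.14 CPM in WT and Hom mice (log2 fold change −0.01, SE 0.05). *Tgfb1* averaged 1.38 ± 0.235 and 1.57 ± 0.359 CPM (0.18, SE 0.13). The log2 fold changes of the other 6 ran from −0.06 to 0.07, with SEs of 0.06 to 0.09. None of the 85 other pathway genes was called, and 5 had an unadjusted p under 0.05.

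In the amyloid cohort the values below describe the contrast that chose the pathway. *Tgfbr2* averaged 39.8 ± 8.65 CPM in WT mice and 27.4 ± 3.18 CPM in Hom mice (SD, n = 10 each), and 7 of 10 Hom mice were below the lowest WT mouse. Its log2 fold change was −0.54 (SE 0.10), and it was the only one of the 9 past the thresholds, as 0.0753% of all genes tested were. Nothing is read from this count. Without amyloid Hom replicate 19 the Hom mean was 27.6 ± 3.32 CPM (n = 9) and the log2 fold change −0.53, and then no member was past the thresholds (0.0659% of all genes were). With sex as a covariate the log2 fold change of *Tgfbr2* was −0.53 (SE 0.08), and 1 of the 9 was past the thresholds beside 1.18% of all genes. Over the 20 fits without 1 mouse the log2 fold change of *Tgfbr2* stayed between −0.58 and −0.47, and it was past the thresholds in 5 of them.

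*Tgfb1* had a larger difference and a larger spread. It averaged 4.60 ± 2.90 CPM in amyloid WT and 2.34 ± 0.394 CPM in amyloid Hom mice, with a log2 fold change of −0.97 (SE 0.25). The highest Hom mouse, at 2.87 CPM, was below the median of the WT mice, but only 1 of 10 Hom mice was below the lowest WT mouse. Amyloid WT replicates 5 and 12, both female, had 9.76 and 10.03 CPM, and the next mouse of the group had 5.11. The same 2 mice were the highest of the group in *Tgfb3*, at 18.8 and 16.97 CPM against 11.2 to 13.5 in the other 8. Without them, a setting chosen after seeing the data, *Tgfb1* averaged 3.28 ± 0.904 CPM (n = 8) in amyloid WT mice and the log2 fold change to Hom mice was −0.48 (SE 0.15), while that of *Tgfbr2* was −0.46 (SE 0.10), and neither was past the thresholds (0.0329% of all genes were). The cohort difference of *Tgfb1* in WT mice was then 1.24 (SE 0.15, edgeR adjusted p = 3.99e-06).

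*Tgfbr1* averaged 68.0 ± 13.8 CPM in amyloid WT and 56.1 ± 10.6 CPM in amyloid Hom mice (log2 fold change −0.28, SE 0.12), and the ranges overlapped for all but 2 Hom mice. *Tgfb2*, *Tgfb3*, *Tgfbr3*, *Smad2*, *Smad3* and *Smad7* had log2 fold changes from −0.07 to 0.06. Over the 9 genes the median log2 fold change was −0.02, and over all genes tested it was 0.00. In the same contrast the 8 microglial markers were all below 0, with a median of −0.61, and none was called. The genes of plaque-associated microglia were also all below 0 (median −0.91), and *Gpnmb* was the 1 called lower. The 5 choroid plexus markers were all above 0 (median 0.94) with none called, and the endothelial median was −0.01. Of the 7 astrocyte markers 3 were above 0 (median −0.07), with none called. The part of these cell types in the values of the pathway genes was not tested. None of the 85 other pathway genes was called by edgeR, with 15 at an unadjusted p under 0.05, as had 9.67% of all genes, and the median of the 10 microglial genes that depend on TGF-beta was −0.43.

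The difference between these 2 genotype effects, amyloid minus non-amyloid, was −1.16 (SE 0.29) for *Tgfb1*, −0.53 (SE 0.12) for *Tgfbr2* and −0.21 (SE 0.15) for *Tgfbr1* on the log2 scale. For the other 6 genes it lay between −0.14 and 0.05. Without amyloid WT replicates 5 and 12 that of *Tgfb1* was −0.67 (SE 0.20). As these values contain the contrast that chose the pathway, they are a description and not a test. By edgeR 0% of all genes tested were past the thresholds, with 2189 at an unadjusted p under 0.05. DESeq2 called 38 genes, 2 of the members among them. With sex as a covariate edgeR called 12 genes, 1 member among them. Nothing is read from these counts.

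The third question was sex. None of the 9 genes was called between females and males over the 40 libraries with the 4 groups as covariate (0.358% of all genes tested were called). With an unadjusted p under 0.05, 4 of the 9 differed, as did 8.74% of all genes. *Tgfbr2* was nearest to a call, with a log2 fold change of 0.19 (SE 0.05, edgeR adjusted p = 0.0604). Without amyloid Hom replicate 19 its adjusted p was 0.0448 and with DESeq2 it was 0.0267, but the fold change stayed under the threshold of 0.25. *Tgfb1* had 0.43 (SE 0.13, edgeR adjusted p = 0.148), *Tgfbr1* had 0.17 (SE 0.07) and *Smad3* had −0.11 (SE 0.05). Without amyloid WT replicates 5 and 12 the value of *Tgfb1* was 0.24 (SE 0.09). All 8 microglial markers were above 0 in the same comparison, with a median of 0.30 and none called. The genes of plaque-associated microglia were all above 0 as well (median 0.59), with *Tyrobp*, which encodes the adaptor of *Trem2*, called higher in females, and of the 7 astrocyte markers, all above 0, *Gfap* was called higher. Of the 85 other pathway genes 3 were called, all higher in females and all among the 10 microglial genes that depend on TGF-beta. They were *Fcrls* at 0.59 (SE 0.11), *Olfml3* at 0.46 (SE 0.10) and *Gpr34*, a microglial receptor gene, at 0.49 (SE 0.11).

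Within the cohorts, a split added after seeing the data, *Tgfbr2* differed between females and males by 0.34 (SE 0.08, edgeR adjusted p = 0.0648) among amyloid mice and by 0.05 (SE 0.05, edgeR adjusted p = 0.984) among non-amyloid mice. Amyloid WT females averaged 45.8 ± 7.35 CPM and males 33.7 ± 4.77 CPM (SD, n = 5 each), and amyloid Hom females averaged 29.6 ± 2.59 CPM and males 25.2 ± 1.95 CPM. *Tgfbr1* differed by 0.37 (SE 0.09, edgeR adjusted p = 0.0902) in the amyloid cohort, with 76.4 ± 8.82 and 59.6 ± 13.2 CPM in WT females and males and 63.3 ± 9.59 and 48.8 ± 5.51 CPM in Hom females and males, and by −0.03 (SE 0.09) in the non-amyloid cohort. The test of the difference between the cohorts gave 0.29 (SE 0.09, edgeR adjusted p = 0.542) for *Tgfbr2* and 0.39 (SE 0.13, edgeR adjusted p = 0.616) for *Tgfbr1*, and it called 0 genes by edgeR and 0 by DESeq2 over the whole table. A difference in the sex effect between the cohorts was therefore not shown. Within a cohort 0 of the 9 genes were called by edgeR, beside 0.24% of all genes in the amyloid and 0.118% in the non-amyloid cohort.

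Within the amyloid cohort no member had a called interaction of genotype and sex, nor had any other gene by edgeR (0% called, with 5.29% of all genes at an unadjusted p under 0.05). *Tgfb1* had the largest value of the 9, −1.02 (SE 0.40, edgeR adjusted p = 0.817), with 6.28 ± 3.38 CPM in amyloid WT females, 2.91 ± 0.651 in WT males, 2.42 ± 0.142 in Hom females and 2.27 ± 0.562 in Hom males. *Tgfb3* had −0.45 (SE 0.17, edgeR adjusted p = 0.817), with 14.2 ± 3.40, 12.7 ± 0.962, 11.5 ± 1.099 and 14.1 ± 0.857 CPM in the same order. Without amyloid WT replicates 5 and 12 these values were −0.32 (SE 0.29) and −0.18 (SE 0.12).

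How the genes varied together from mouse to mouse was described by the correlation of log2 CPM over the 40 libraries after the group means and the mean sex difference were removed, where all values of a library share its depth and composition. The closest pair among the members was *Tgfbr1* and *Smad2* (Pearson's r = 0.73), followed by *Tgfb1* and *Tgfb3* (0.67), *Tgfb1* and *Smad7* (0.60) and *Tgfb1* and *Tgfbr2* (0.57). *Smad2* and *Smad7* had the most negative value, −0.49, and the pair of receptors *Tgfbr1* and *Tgfbr2* had 0.39. Over the 36 pairs of members the values thus ran from −0.49 to 0.73. Amyloid WT replicates 5 and 12, which stood apart in *Tgfb1* and *Tgfb3*, bear on these values. The highest *Smad7* level in amyloid WT mice was 19.3 CPM with them and 15.5 CPM without them. Amyloid Hom replicate 19 is in these correlations and in those that follow. The lowest *Smad2* level in amyloid Hom mice was 35.3 CPM with it and 37.1 CPM without it. No correlation was computed without replicates 5 and 12 or without replicate 19, so their part in these values was not tested.

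Among 15994 named genes, those most like *Tgfbr2* included *Msn* (r = 0.81), which encodes the membrane linker moesin, and *Gusb* (0.78), a lysosomal glucuronidase. Those most like *Tgfbr1* were *Lamp2* (0.87), a lysosomal membrane protein gene, *Mob1a* (0.85) and *Ankib1* (0.85). For *Tgfb1* they were *Hmox1* (0.83), the haem oxygenase induced by oxidative stress, *Zfp703* (0.81) and *Fgfr1* (0.81). *Hmox1* was at 15.5 and 16.3 CPM in amyloid WT replicates 5 and 12, against 5.83 to 11.3 CPM in the other 8 mice of the group. For *Tgfb3* they were *St6galnac4* (0.90), a sialyltransferase gene, *Unc119b* (0.90) and *Rab15* (0.89), and *St6galnac4* was at 39.4 and 36.2 CPM in the same 2 mice and at 16.2 to 21.6 CPM in the other 8.

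*Tgfb2* was most like *Tcf7l2* (0.76), *Zfp36l1* (0.71) and *Mdfic* (0.71). *Tgfbr3* was most like *Gpr116* (0.81), *Igf2* (0.76), the growth factor that leptomeninges and choroid plexus make, and *Nxpe4* (0.74). *Smad2* was most like *Cltc* (0.90), the clathrin heavy chain, *Rlf* (0.90) and *Tnpo3* (0.88). *Smad3* was most like *Gas7* (0.74), *Irf2* (0.71) and *Mtmr12* (0.71), and *Smad7* most like *Irf2bpl* (0.81), *Cln8* (0.80) and *Csrnp1* (0.79).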

How the data were processed

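Cortical RNA from 40 mice was sequenced, and each of the 4 groups held 10 mice. The authors deposited raw read counts per gene on mm10 (whole numbers, not normalized). The paper names TopHat and Bowtie within MAP-RSeq and featureCounts, while the submitters' processing notes name STAR 2.5.2b, featureCounts 1.5.1 and edgeR, so the aligner is not settled, and the strand setting is not given in the sources used here. The paper left out 1 unnamed amyloid Hom female for a low percentage of gene counts and for the result of its strandedness check. All 10 mice of that group were kept here. Replicate 19, a female of that group, stood apart in opposite-strand counts, but whether it is the mouse left out is not stated.

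The members and gene lists were chosen with earlier results of these data known. The 21253 genes that reached 10 counts in 4 or more of the 40 libraries were normalized by TMM and tested with edgeR 4.0.16 (quasi-likelihood, R 4.3.3), the pipeline the paper names, here without covariates, which the paper does not state. A gene was called when its p, adjusted by Benjamini-Hochberg, was under 0.05 and its log2 fold change was beyond 0.25 in either direction. For amyloid Hom against WT mice the paper, with 1 mouse left out, reports many more genes called than the 16 of the main fit here. The shares of all genes given here are those of the fits made here. Levels (CPM) divide each count by its library size after TMM adjustment. Alternatives used DESeq2 1.42.0, limma 3.58.1 (voom), other normalizations and filters, sex as a covariate and fits without 1 library. Python 3.11.15 and matplotlib 3.10.9 made the descriptions and figures. Total counts of 41646271 to 105903846 put the lowest member, *Tgfb1*, at 61 to 903 counts per library, where counting error is largest. Over 180 within-group pairs of libraries the smallest chi-square per degree of freedom was 12.7, so none was a duplicate. Tested on simulated data for amyloid Hom against WT (21253 genes), the test called 98 of 100 genes changed by 1 and 66 of 100 changed by 0.5 on the log2 scale. It also called 5 unchanged genes. The changed genes were drawn from those above a minimum mean count, and no outlying library or sex difference was simulated. These shares are therefore not the power of the real contrast.

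Named pathway genes were the called ones, at most 3 of lowest p per role, and likeness genes were the 3 of highest r per member. Some genes that these rules name are not reported here. Single cell type markers, *Hmox1* and *St6galnac4* levels in single mice, and other values of amyloid WT replicates 5 and 12, were chosen after their values were seen.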

Additional observations from a re-analysis of the deposited data

Results flagged for a closer look

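In 36 groups of 10 values (9 genes in 4 groups), 2 had a mouse far from the others by Dixon's test, and chance gives about 1 in 20. *Tgfb1* was lowest in amyloid Hom replicate 10, a male, at 1.42 CPM, with the next mouse at 2.12. *Smad3* was lowest in amyloid WT replicate 12, a female, at 67.2 CPM, with the next mouse at 88.3. The same library was the highest of its group in *Tgfb1*, at 10.03 CPM. The cause was not tested.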

How the results depend on the processing

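In the cohort comparisons, all 3 calls in WT mice were made under every alternative tried, and in Hom mice under every one but the fit of all 40 libraries together, where *Tgfb1* missed (log2 fold change 0.58). In the non-amyloid genotype comparison, the sex comparison and both interactions with sex, 0 members were called throughout. The amyloid genotype contrast chose the pathway, and the genotype by cohort interaction contains it. Nothing is read from the counts of members in either. The counts in the amyloid genotype contrast moved. Of 1 member called there, 2 were called in 1 fit of all 40 libraries, with an adjusted p under 0.1 and with DESeq2, and 0 with limma-voom, without a filter on low counts or without amyloid WT replicates 5 and 12. Without 1 mouse the count ran from 0 to 2, and it was 0 in 15 of the 20 fits. The count over all genes tested moved as well. It was 16 in the main fit, 612 in 1 fit of all 40 libraries, 303 with DESeq2 and 251 with sex as a covariate. It was 59 with filterByExpr, 25 with limma-voom, 9 without a filter and 7 without amyloid WT replicates 5 and 12. Without 1 mouse it ran from 6 to 204. In the genotype by cohort interaction 2 members were called with DESeq2, beside 38 of all genes. With sex as a covariate 1 was called, with amyloid Hom replicate 19 (12 of all genes) or without it (6 of all genes). Of the other pathway genes, 0 were called in the amyloid genotype contrast, but 7 with DESeq2, 6 in 1 fit of all 40 libraries, 6 with sex as a covariate (also 6 without replicate 19), 5 at an adjusted p under 0.1, 2 with filterByExpr and 1 with limma-voom, and from 0 to 5 without 1 mouse. The cause was not tested.

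Outside the amyloid genotype contrast and the genotype by cohort interaction, signs turned only for members that were not called. Without amyloid WT replicates 5 and 12 the log2 values were −0.029 for *Tgfb3* between the cohorts in WT mice, −0.028 for *Smad3* and −0.029 for *Tgfbr1* in the genotype by sex interaction, and 0.022 for *Smad3*, −0.027 for *Tgfb1* and −0.10 for *Tgfb3* in the sex by cohort interaction. The sex difference was 0.054 for *Smad2* in the amyloid cohort alone and −0.025 for *Tgfbr1* in the non-amyloid cohort alone. *Smad2* had 0.023 in the genotype by sex interaction with limma-voom, and *Tgfbr3* had 0.0030 between the cohorts in Hom mice with upper-quartile factors. Without 1 mouse, *Smad2* ran from −0.014 to 0.047 between the cohorts in Hom mice, from −0.065 to 0.011 in WT mice and from −0.058 to 0.011 between non-amyloid genotypes. Without replicate 19 *Smad2* had 0.035 in the genotype by sex interaction and *Smad3* had 0.013 in the sex by cohort interaction. *Smad7* ran from −0.079 to 0.0060 between the cohorts in WT mice, *Tgfbr3* from −0.041 to 0.024 in Hom mice, and between non-amyloid genotypes *Tgfb2* ran from −0.073 to 0.024 and *Tgfbr2* from −0.026 to 0.014.

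*Tgfb1*, the lowest member, carries the most counting error. No paired analysis was possible because the sample labels give no litter or other pairing, so any likeness of littermates was not taken into account.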
